A study of Mus musculus with 6 samples.

Results

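AMP-activated protein kinase (AMPK) is a heterotrimer of a catalytic α subunit, a scaffolding β subunit and a nucleotide-binding γ subunit, each of which is encoded by more than 1 gene. AMP and ADP bind the γ subunit when cellular energy falls, and the complex is switched on when an upstream kinase phosphorylates the activation loop of α. LKB1 (Stk11) and CaMKK2 (Camkk2) are the upstream kinases described here. In skeletal muscle, active AMPK promotes glucose uptake and fatty acid oxidation and restrains lipid synthesis, and the γ3 subunit Prkag3 is known for its enrichment in this tissue. The 9 genes were taken by symbol from the count table, which lists 47069 genes: Prkaa1 and Prkaa2 (α1 and α2), Prkab1 and Prkab2 (β1 and β2), Prkag1, Prkag2 and Prkag3 (γ1 to γ3), Stk11 and Camkk2.

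The transcripts were counted in muscle stem cells of mdx mice, which lack dystrophin and serve as a model of Duchenne muscular dystrophy. The cells of both groups were purified by flow cytometry and grown as myoblasts in HAM-F10 medium with serum and FGF2. 3 cultures received vehicle and 3 received PSB-KD107, a compound that activates the receptor Gpr18, at 10 µM. The sample titles and treatment labels of the latter read PSB-KD-1, which was taken as the same compound because their treatment protocol and the design text of the series name PSB-KD107. The sample records state 2 days of treatment and the study's methods state 16 h, so the duration is uncertain, and there were no wild-type cells in the comparison. The methods name myoblasts from 3 mice. Libraries are named here by the numbers 1, 2 and 4 that they carry in the count table.

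The libraries held 30917613 to 48756794 counts, and 14165 genes had enough counts to be tested, all 9 AMPK genes among them. The lowest count of any of the 9 was 345. The deposited label calls the cells satellite cells. Myoblast markers were present, with summed levels of 5888 to 6377 CPM (counts scaled to the normalized library size) in vehicle and 5827 to 5999 CPM in PSB-KD107 libraries. The 7 markers of differentiating myocytes were present too and summed to 30772 to 34302 CPM in vehicle and 24301 to 28604 CPM in PSB-KD107 libraries. The embryonic myosin heavy chain Myh3 alone reached 17158 to 18255 CPM in vehicle libraries. These levels are not scaled to gene length, so the sums do not show which cell state prevailed. Markers of fibro-adipogenic, endothelial and white blood cells summed to at most 9.88, 0.99 and 4.41 CPM in any library, with Plin1, Tie1 and Adgre1 at 0 in all 6.

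The isoforms of a subunit are related genes, so their coding sequences (GENCODE M21, GRCm38) were compared first to see whether reads of 100 bases could be shared between them. Aligned over their length, the coding sequences were 71.2% identical for the α pair, 73.3% for the β pair, 67.7% for γ1 and γ2, 66.6% for γ1 and γ3 and 65.9% for γ2 and γ3. The longest unbroken identity was 35 bases in the α pair, 23 bases in the β pair and 17, 15 and 11 bases in the γ2 and γ3, γ1 and γ2, and γ1 and γ3 pairs, all shorter than a read. The most alike 100-base windows of the α and β pairs and of Prkag3 with each of the other γ isoforms are printed because the isoform comparisons rest on telling these genes apart. Each is given 5′ to 3′ in the sense of the transcript, capitals mark the bases that differ between the pair, and positions are counted from the A of the start codon.
Prkaa1, coding bases 34 to 133: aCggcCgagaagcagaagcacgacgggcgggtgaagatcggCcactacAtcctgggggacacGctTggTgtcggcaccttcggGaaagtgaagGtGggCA
Prkaa2, coding bases 1 to 100: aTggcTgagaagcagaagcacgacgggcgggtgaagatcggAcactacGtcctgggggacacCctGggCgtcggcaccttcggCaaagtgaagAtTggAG
Prkab1, coding bases 340 to 439: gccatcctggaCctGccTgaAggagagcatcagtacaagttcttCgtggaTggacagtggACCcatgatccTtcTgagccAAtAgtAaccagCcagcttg
Prkab2, coding bases 337 to 436: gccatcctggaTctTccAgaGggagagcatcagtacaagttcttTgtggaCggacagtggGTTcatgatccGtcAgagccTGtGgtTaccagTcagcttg
Prkag2, coding bases 836 to 935: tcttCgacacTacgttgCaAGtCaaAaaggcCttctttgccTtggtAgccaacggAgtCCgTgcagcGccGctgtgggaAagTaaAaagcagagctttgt
Prkag3, coding bases 614 to 713: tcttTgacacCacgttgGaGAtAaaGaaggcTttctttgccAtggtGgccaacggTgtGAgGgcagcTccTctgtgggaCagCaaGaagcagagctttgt
Prkag1 (with Prkag3), coding bases 164 to 263: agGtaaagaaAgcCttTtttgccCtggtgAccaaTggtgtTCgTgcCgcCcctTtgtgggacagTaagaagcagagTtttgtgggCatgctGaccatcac
Prkag3 (with Prkag1), coding bases 632 to 731: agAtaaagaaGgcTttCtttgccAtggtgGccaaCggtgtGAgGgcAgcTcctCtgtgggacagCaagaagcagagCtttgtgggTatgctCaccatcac
Even there the α pair differed at 12 of 100 bases, the β pair at 16, the γ2 and γ3 pair at 19 and the γ1 and γ3 pair at 17. The most alike window of γ1 and γ2, which is not printed, differed at 21 bases. In the genome the windows of γ1 and γ3 span 3 coding exons, at chr15:98815540-98815877 (−) for Prkag1 and chr1:74745740-74747153 (−) for Prkag3. The others span 2 coding exons each, at chr15:5143902-5160608 (+) for Prkaa1, chr4:105075550-105109798 (−) for Prkaa2, chr5:116020097-116020451 (−) for Prkab1, chr3:97663598-97663889 (+) for Prkab2, chr5:24880686-24889101 (−) for Prkag2 and chr1:74745872-74747171 (−) for Prkag3. Further 100-base windows were taken from a single transcript of each gene, the one with the longest coding part. None of these from Prkaa1, Prkaa2, Prkab1, Prkab2, Prkag2, Prkag3 or Camkk2 occurred in a transcript of another gene. In Prkag1 12.2% of the windows were shared with the antisense gene B130046B21Rik, which had 20 counts over all libraries. In Stk11 5.39% were shared with its opposite-strand neighbor Cbarp, which had 2658. Over all annotated exons, B130046B21Rik overlapped 43.7% of the Prkag1 length and Cbarp 5.07% of that of Stk11. The antisense genes Prkag2os2 and Prkag2os1 overlapped 12.3% and 2.19% of the Prkag2 length. The effect of these overlaps on the counts and on the levels per kb was not tested.

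In vehicle-treated cells, the regulatory γ3 subunit Prkag3 was the most abundant of the 9 transcripts, at 49.6 ± 3.03 CPM per kb of annotated exon (SD, n = 3), followed by the kinase gene Stk11 at 30.4 ± 1.94 CPM per kb. Neither range overlapped that of the next gene in the order. Prkaa1 (19.4 ± 2.21), Prkag1 (15.7 ± 2.47), Prkab1 (13.5 ± 0.82), Prkab2 (10.4 ± 2.90) and Prkaa2 (9.70 ± 2.76 CPM per kb) followed, and each of these overlapped its neighbor in the order. Prkag2 at 2.36 ± 0.24 and Camkk2 at 1.13 ± 0.16 CPM per kb stood below all the others without overlap. Per kb of coding sequence, however, Prkag2 (7.95 to 9.65 CPM per kb) and Camkk2 (6.14 to 8.11 CPM per kb) overlapped in vehicle libraries. With PSB-KD107 Prkag3 had the highest mean level, 29.3 ± 6.80 CPM per kb, but it overlapped Stk11 at 25.6 ± 2.00 CPM per kb. Prkag2 at 4.30 ± 1.42 and Camkk2 at 1.31 ± 0.28 CPM per kb were again last. This order depended on the length used. Per kb of coding sequence the highest PSB-KD107 means were, in this order, those of Prkab2 (66.3 to 139), Stk11 (82.6 to 96.6) and Prkag3 (54.4 to 87.1 CPM per kb), with overlap, and with the longest transcript Prkag2 overlapped Prkaa2. In vehicle libraries Prkag3 and then Stk11 led the order with each of the 3 lengths.

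**Figure D1:**
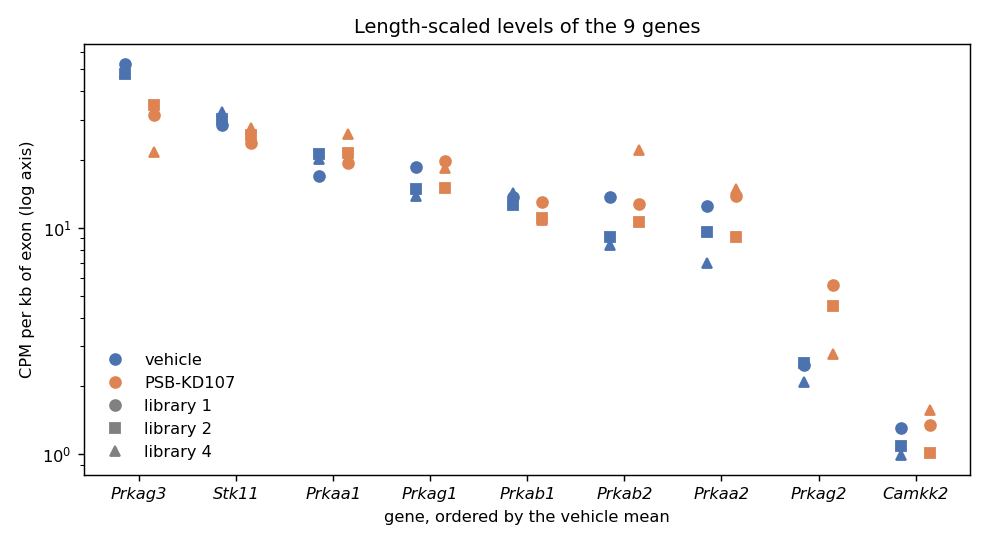
Levels of the 9 genes in CPM per kb of exon (vertical log axis), with genes ordered by their vehicle mean along the horizontal axis, 1 point per library, blue for vehicle and orange for PSB-KD107. Prkag3 lies highest in vehicle at 49.6 ± 3.03 CPM per kb and overlaps Stk11 with PSB-KD107, and Camkk2 lies lowest in both groups.

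PSB-KD107-treated cells had less Prkag3 and Stk11 transcript and more Prkag2 transcript than vehicle-treated cells, with no overlap between the groups, whereas the groups overlapped for the other 6 genes. These 3 were also the only ones of the 9 at an unadjusted p under 0.05, and 6 of the 9 estimates were higher and 3 lower. Among all genes tested 9.4% had an unadjusted p under 0.05 (6.47% higher and 2.93% lower), and 15.8% had groups that did not overlap (9.2% higher and 6.59% lower). No gene passed an adjusted p of 0.05 in edgeR's quasi-likelihood test, where the smallest adjusted p of any gene was 0.0738. DESeq2 called 2.98% of the 13761 genes to which it gave an adjusted p, and Prkag3 was the 1 AMPK gene called. The median log2 fold change of the 9 genes was 0.19, against -0.0007 over all genes tested. Because whole cultures were measured, a smaller share of cells that express a gene cannot be told apart from less of its RNA in each cell.

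**Figure D2:**
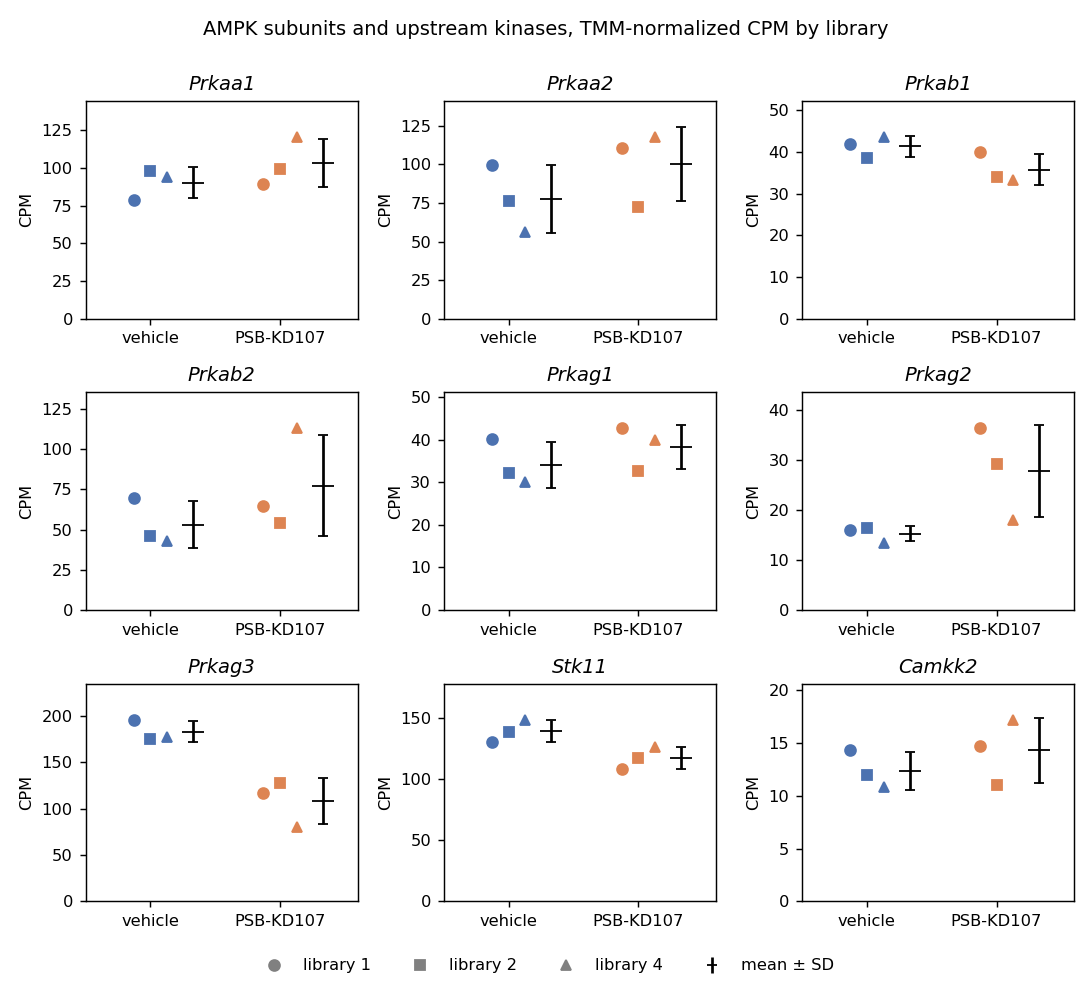
CPM of each of the 9 genes (vertical axis, from 0) in the vehicle and PSB-KD107 libraries, with symbols for libraries 1, 2 and 4 and the group mean ± SD in black. The groups are apart for Prkag2, Prkag3 and Stk11, and in the Prkab2 panel library 4 of the PSB-KD107 group lies above the other 5.

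The catalytic subunits carry the kinase domain. Prkaa1 (chr15:5143861-5181899) had 78.7, 98.3 and 93.8 CPM in vehicle libraries 1, 2 and 4 and 89.6, 99.3 and 121 CPM in the PSB-KD107 libraries of the same numbers. The groups overlapped, and the difference of 0.19 log2 units (SE 0.15, 95% interval -0.17 to 0.55, edgeR adjusted p = 0.731) was not beyond their spread. Prkaa2 (chr4:105029874-105109890), the isoform that muscle expresses strongly, had 99.8, 76.3 and 55.9 CPM with vehicle and 111, 72.7 and 118 CPM with PSB-KD107. The ranges overlapped, and the difference of 0.38 log2 units (SE 0.27, 95% interval -0.28 to 1.03) had an edgeR adjusted p of 0.715. The intervals of both genes still allow a rise, up to 0.55 log2 units for Prkaa1 and 1.03 for Prkaa2, and also a fall, down to -0.17 and -0.28. Per kb, Prkaa2 made up 33.2 ± 8.55% of the α transcripts in vehicle and 36.0 ± 5.97% in PSB-KD107 libraries (exact permutation test, two-sided, p = 0.8). The summed α level was 29.1 ± 1.79 and 34.7 ± 5.30 CPM per kb (exact permutation p = 0.2, where 3 libraries against 3 cannot give less than 0.1).

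The β subunits hold the complex together and bind glycogen. Prkab1 (chr5:116013586-116024508) had 41.8, 38.5 and 43.5 CPM with vehicle and 39.9, 34.0 and 33.2 CPM with PSB-KD107. Only PSB-KD107 library 1 lay within the vehicle range, and the estimate was -0.21 log2 units (SE 0.12, 95% interval -0.49 to 0.07, edgeR adjusted p = 0.637). Prkab2 (chr3:97658193-97673812), the muscle-enriched β isoform, had 70.0, 46.3 and 42.8 CPM with vehicle and 65.0, 53.9 and 113 CPM with PSB-KD107. A single library, number 4 of the PSB-KD107 group, stood above the 5 others, which overlapped. The estimate of 0.54 log2 units (SE 0.33, 95% interval -0.26 to 1.34, edgeR adjusted p = 0.672) became 0.16 when that library was left out. The share of Prkab2 among the β transcripts was 50.2, 41.9 and 37.2% in vehicle libraries and 49.5, 48.8 and 67.2% in PSB-KD107 libraries, so the groups overlapped (exact permutation p = 0.3). The summed β level was 23.9 ± 3.05 CPM per kb in vehicle and 26.8 ± 5.72 in PSB-KD107 libraries (exact permutation p = 0.7).

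**Figure D3:**
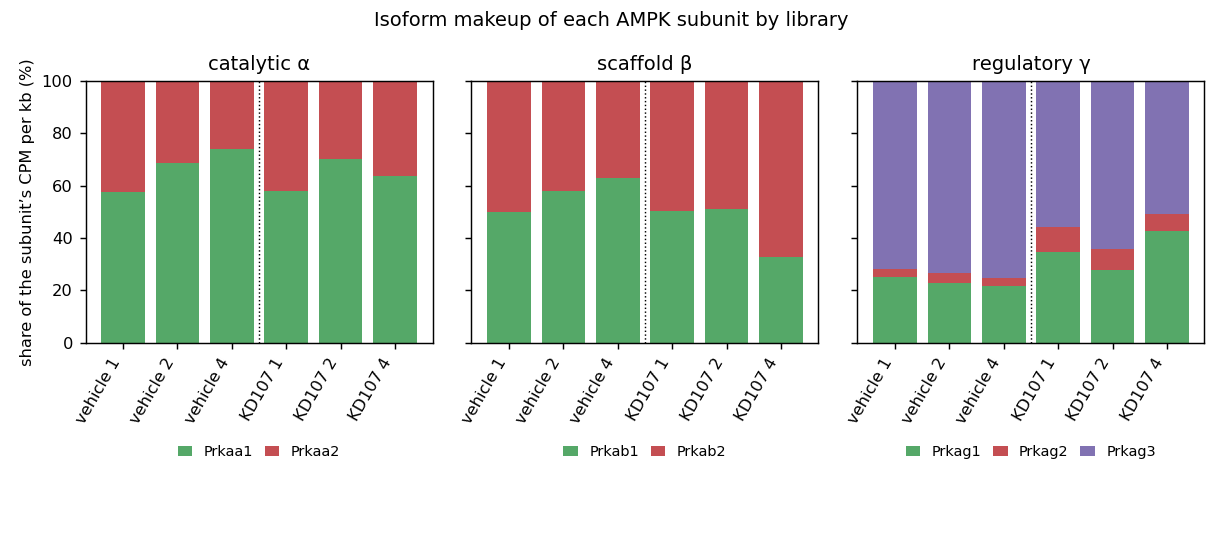
Share of each isoform in the summed CPM per kb of its subunit (vertical axis, percent), 1 bar per library and 1 panel per subunit, with vehicle left of the dotted line. In the γ panel the share of Prkag3 is 73.4 ± 1.74% in vehicle and 56.7 ± 6.75% in PSB-KD107 libraries, while the α and β shares of the groups overlap.

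The γ subunits sense the AMP to ATP ratio, and here the estimates of the isoforms differed in sign. Prkag3 (chr1:74738922-74749221) had 195, 175 and 177 CPM in vehicle libraries 1, 2 and 4, from 7662, 6119 and 5713 counts. In the PSB-KD107 libraries it had 116, 128 and 79.8 CPM, from 5848, 3984 and 2900 counts. All treated libraries lay below all vehicle libraries, and the lowest was PSB-KD107 library 4. The mean of 183 ± 11.2 CPM in vehicle compared with 108 ± 25.1 CPM with PSB-KD107, a log2 fold change of -0.76 (SE 0.18, 95% interval -1.21 to -0.31). The edgeR unadjusted p was 0.00595 and the adjusted p 0.287, whereas DESeq2 gave a log2 fold change of -0.77 (SE 0.22) with an adjusted p of 0.0226. With 1 library left out at a time, the DESeq2 call held in 2 of 6 fits, those without PSB-KD107 library 2 or 4. The adjusted p was above 0.05 without PSB-KD107 library 1 or any 1 of the vehicle libraries, reaching 0.197.

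Some markers of muscle differentiation were also lower with PSB-KD107. Of the 7 markers of differentiating myocytes, 4 estimates were lower, 3 of them at an unadjusted p under 0.05, and 3 were higher, none at that p. The higher ones were Ckm at 0.33 log2 units and Acta1 and Tnnt3 at 0.01 each. Ckm had 222, 281 and 818 CPM in PSB-KD107 libraries 1, 2 and 4, against 287 to 425 CPM with vehicle. Acta1 had 4572, 4726 and 8895 CPM, against 5019 to 7211 CPM. For both, PSB-KD107 library 4 lay above the vehicle range and libraries 1 and 2 lay below it. The summed level of the 7 did not overlap between the groups, as given above. Myh3 was the largest part of that sum in each library, and Ckm, Acta1 and Tnnt3 each overlapped between the groups. Among all genes tested, 2.93% were lower at an unadjusted p under 0.05, and 6.59% were lower without overlap. The transcription factor Myog, which drives differentiation, had 2042, 2203 and 2158 CPM with vehicle and 1175, 1726 and 1661 CPM with PSB-KD107, a log2 fold change of -0.49. The fusion protein gene Mymk differed by -0.37 log2 units and Myh3 by -0.44. The adjusted p-values of Myog, Mymk and Myh3 were 0.469, 0.399 and 0.493 in edgeR and 0.203, 0.0451 and 0.0306 in DESeq2. Of the 7 myoblast markers, whose summed level overlapped between the groups, 2 estimates were higher and 5 lower. Only that of the satellite cell factor Pax7 (-0.90 log2 units) had an unadjusted p under 0.05 in edgeR. For Pax7 the adjusted p was 0.209 in edgeR and 0.0018 in DESeq2. Myf5 was at 0.73 and Des at 0.15 log2 units. The part of these marker differences in the Prkag3 result was not tested.

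Prkag2 (chr5:24862744-25100642), the γ isoform mutated in a familial heart disease with glycogen storage, had 16.1, 16.4 and 13.5 CPM with vehicle, from 630, 572 and 435 counts. With PSB-KD107 it had 36.3, 29.2 and 18.0 CPM, from 1829, 910 and 656 counts. The groups did not overlap, but PSB-KD107 library 4 lay just above the vehicle range. The mean was 15.3 ± 1.59 CPM in vehicle and 27.9 ± 9.22 CPM with PSB-KD107, a log2 fold change of 0.86 (SE 0.27, 95% interval 0.21 to 1.51). Its unadjusted p in edgeR was 0.0174 (0.0588 without vehicle library 4 and 0.054 without PSB-KD107 library 1), with adjusted p-values of 0.412 in edgeR and 0.105 in DESeq2. DESeq2 called the gene in 1 of the 6 fits with a library left out, the one without PSB-KD107 library 4 (adjusted p = 4.54e-06). The antisense genes at this locus had 22 counts or fewer each over all libraries. Prkag1 (chr15:98812797-98831521), the widely expressed γ isoform, had 40.2, 32.1 and 30.1 CPM with vehicle and 42.7, 32.7 and 39.9 CPM with PSB-KD107. Its groups overlapped, and the estimate was 0.17 log2 units (SE 0.16, 95% interval -0.23 to 0.57, edgeR adjusted p = 0.785).

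The makeup of the γ transcripts differed between the groups without overlap. Its shares, ratios and sums are computed from the same levels as above, so they restate those differences and are no separate result. How often such values fail to overlap for other genes was not computed. Prkag3 held 71.7, 73.4 and 75.2% of the γ transcripts per kb in vehicle libraries and 55.6, 64.0 and 50.6% in PSB-KD107 libraries. The share of Prkag2 was 3.35, 3.90 and 3.25% with vehicle and 9.88, 8.30 and 6.51% with PSB-KD107. Prkag1 took 25.0, 22.7 and 21.6% of the γ transcripts with vehicle and 34.6, 27.7 and 42.8% with PSB-KD107, although its own level overlapped between the groups. None of the 3 shares overlapped, and each reached p = 0.1 in the exact permutation test (two-sided), the smallest value that 3 against 3 libraries allow, before any adjustment over the isoforms. The geometric mean ratio of Prkag3 to Prkag2 went from 20.9 in vehicle to 6.94 in PSB-KD107 libraries, a difference of -1.59 on the log2 scale (exact permutation p = 0.1). That of Prkag3 to Prkag1 went from 3.17 to 1.63, a difference of -0.96 (exact permutation p = 0.1), while the Prkag2 to Prkag1 ratio overlapped (0.63, exact permutation p = 0.2). The summed γ level was 74.1, 64.9 and 64.0 CPM per kb with vehicle and 56.8, 54.2 and 42.8 CPM per kb with PSB-KD107, without overlap (exact permutation p = 0.1). In contrast to the γ pairs that include Prkag3, the log2 ratio of Prkab2 to Prkab1 differed by 0.72 (exact permutation p = 0.3) and that of Prkaa2 to Prkaa1 by 0.20 (exact permutation p = 0.8), both with overlap. These 6 ratios, the kinase pair included, are one family. With the smallest p at 0.1, none can pass 0.05.

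**Figure D4:**
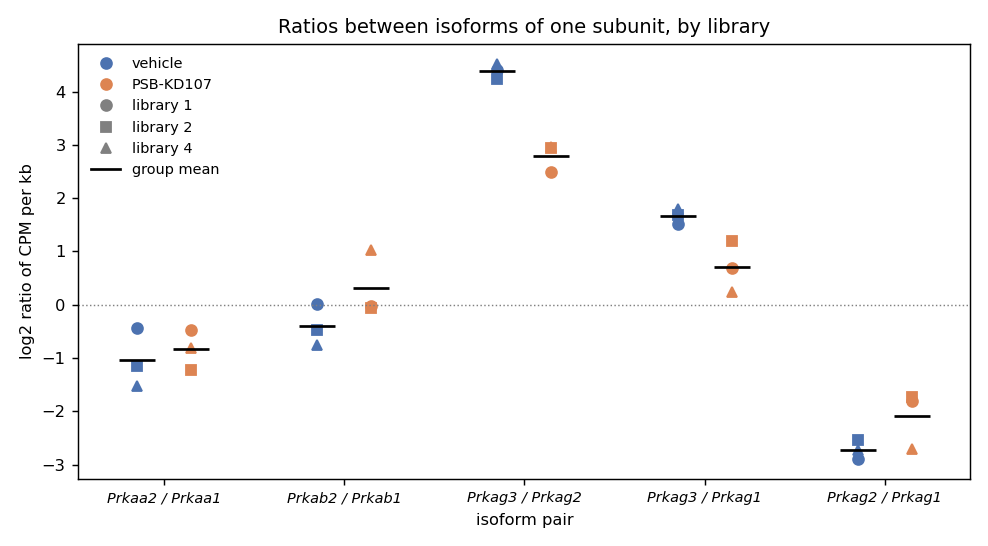
Log2 ratio of CPM per kb (vertical axis) for the 5 isoform pairs (horizontal axis), 1 point per library with the group mean as a black bar. The Prkag3 to Prkag2 and Prkag3 to Prkag1 ratios of the PSB-KD107 libraries all lie below those of the vehicle libraries, and the groups overlap for the other pairs.

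Of the upstream kinases, Stk11 (chr10:80115803-80130682), encoding LKB1, had 131, 138 and 149 CPM with vehicle and 108, 118 and 126 CPM with PSB-KD107. The treated libraries all lay below the vehicle ones, but the gap between the groups was small, 126 against 131 CPM. The mean was 139 ± 8.90 CPM in vehicle and 117 ± 9.15 CPM with PSB-KD107, a log2 fold change of -0.25 (SE 0.10, 95% interval -0.49 to -0.0033). The edgeR unadjusted p was 0.0478 and the adjusted p 0.527, and the unadjusted p was 0.0608 in DESeq2, 0.0548 in limma-voom and as high as 0.16 in edgeR with a library left out (above 0.05 without vehicle library 2 or 4 or PSB-KD107 library 1 or 2). Camkk2 (chr5:122731170-122779409), the calcium-dependent kinase, had 14.3, 11.9 and 10.8 CPM with vehicle and 14.7, 11.1 and 17.2 CPM with PSB-KD107. Those groups overlapped, with an estimate of 0.21 log2 units (SE 0.21, 95% interval -0.31 to 0.73, edgeR adjusted p = 0.789). The geometric mean ratio of Stk11 to Camkk2 per kb was 26.8 in vehicle and 19.7 in PSB-KD107 libraries (exact permutation p = 0.2).

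The other genes of the pathway were read from 6 lists of partners, regulators, related kinases, enzymes and substrates, which hold 65 genes besides the 9. 62 of them were tested, and an unadjusted p under 0.05 was seen in 10 with a higher and 1 with a lower level, or 17.7%, compared with 9.4% of all genes. Their median log2 fold change was 0.11. None passed the edgeR adjusted p of 0.05. DESeq2 called 10 of the 62, and 2.98% of all the genes to which it gave an adjusted p.

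**Figure D5:**
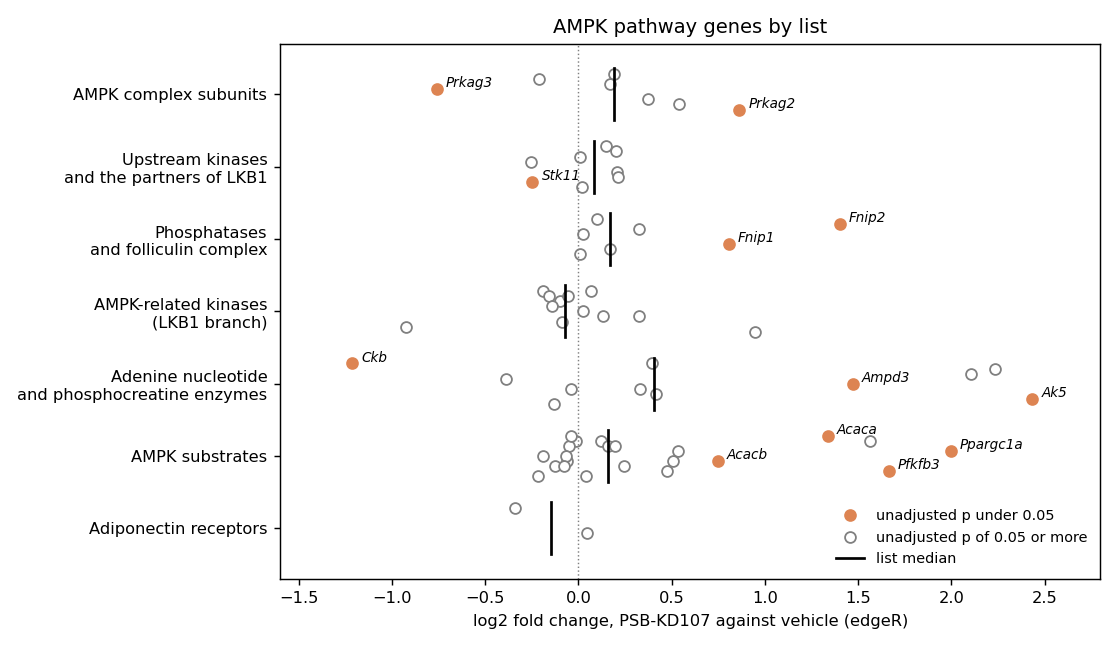
Log2 fold change with PSB-KD107 (horizontal axis) of the tested genes in the lists (rows), with filled points for an unadjusted p under 0.05 in edgeR and a black bar at the list median, which also counts genes that are not drawn because they are not reported here. The filled points other than the 3 AMPK genes lie in the lists of phosphatases and folliculin complex, adenine nucleotide and phosphocreatine enzymes, and substrates.

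None of the other genes in the list of upstream kinases and LKB1 partners had an unadjusted p under 0.05. The pseudokinase Strada, which activates LKB1, came closest at 28.3, 34.2 and 32.7 CPM with vehicle and 26.0, 28.5 and 25.5 CPM with PSB-KD107 (log2 fold change -0.25, SE 0.12, edgeR adjusted p = 0.594). Map3k7, which encodes the further candidate kinase TAK1, had a log2 fold change of 0.01 (95% interval -0.18 to 0.20). Of the 12 tested AMPK-related kinases, which LKB1 also phosphorylates apart from Melk, 5 estimates were higher and 7 lower, and none had an unadjusted p under 0.05. The one with the smallest p was Sik3, with 0.13 log2 units (SE 0.11, edgeR adjusted p = 0.752). The adiponectin receptors, which lie upstream of AMPK in muscle, gave no unadjusted p under 0.05 either, with Adipor1 at -0.34 log2 units (SE 0.24, edgeR adjusted p = 0.706).

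All 7 phosphatases and folliculin complex genes had edgeR estimates above 0, where 49.9% of all genes tested were higher. The smallest of these estimates was 0.0078, and the same gene was at -0.0048 in DESeq2. An unadjusted p under 0.05, seen with a higher level in 6.47% of all genes tested, was reached by 2. Both encode folliculin-interacting proteins, which bind AMPK and folliculin. Fnip2 had 5.97, 6.27 and 7.29 CPM with vehicle and 20.1, 17.9 and 13.6 CPM with PSB-KD107. All treated libraries were above all vehicle libraries, with a log2 fold change of 1.40 (SE 0.20, adjusted p = 0.176 in edgeR and 5.79e-07 in DESeq2). Fnip1 had 48.5, 71.0 and 71.4 CPM with vehicle and 99.6, 114 and 121 CPM with PSB-KD107, again without overlap (log2 fold change 0.81, SE 0.18, adjusted p = 0.251 in edgeR and 0.0151 in DESeq2). With a library left out, DESeq2 called Fnip2 in 6 of 6 fits but Fnip1 in 2, since its adjusted p was 0.0504 to 0.0778 without vehicle library 2 or 4 or PSB-KD107 library 2 or 4.

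The adenine nucleotide and phosphocreatine enzymes set the nucleotide levels that AMPK senses. Of the 12 tested, 4 had an unadjusted p under 0.05, 3 of them with a higher and 1 with a lower level, and the list median was 0.40. Among all genes tested, 6.47% were higher and 2.93% lower at that p. The adenylate kinase gene Ak5 had 0.82, 1.15 and 0.99 CPM with vehicle and 4.93, 4.04 and 7.04 CPM with PSB-KD107, a log2 fold change of 2.44 (SE 0.32, adjusted p = 0.165 in edgeR and 4.22e-09 in DESeq2). The brain-type creatine kinase gene Ckb went the other way, from 421, 336 and 331 CPM to 200, 142 and 127 CPM, a log2 fold change of -1.21 (SE 0.20, adjusted p = 0.184 in edgeR and 6.35e-05 in DESeq2). Neither overlapped between the groups. The AMP deaminase gene Ampd3 was 1.47 log2 units higher (SE 0.43, adjusted p = 0.381 in edgeR and 0.0287 in DESeq2), with 98.5 CPM in PSB-KD107 library 1 against 43.2 and 31.1 CPM in libraries 2 and 4. Without that library its log2 fold change was 0.82, and the DESeq2 call was lost without any 1 of the vehicle libraries (adjusted p 0.0679, 0.276 and 0.314 without library 1, 2 or 4).

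AMPK phosphorylates the proteins of the substrate list. At an unadjusted p under 0.05, 5 of its 23 tested genes were higher and none lower, against 6.47% and 2.93% of all genes tested. These are transcript levels and say nothing of phosphorylation. The acetyl-CoA carboxylase genes, which make malonyl-CoA, both lay higher in all treated libraries. Acaca went from 50.1, 34.1 and 36.8 CPM to 133, 102 and 71.4 CPM (log2 fold change 1.34, SE 0.26) and Acacb from 15.9, 16.1 and 13.1 CPM to 26.3, 21.1 and 28.2 CPM (log2 fold change 0.75, SE 0.17). DESeq2 gave adjusted p-values of 0.000885 for Acaca and 0.0113 for Acacb. The call of Acaca was lost without vehicle library 2 (0.0522) and that of Acacb without vehicle library 2 or 4 or PSB-KD107 library 1 (0.0976, 0.174 and 0.108), and edgeR gave adjusted p-values of 0.228 and 0.253. The coactivator gene Ppargc1a, a regulator of mitochondrial genes, had 6.35, 10.1 and 7.07 CPM with vehicle and 17.8, 23.1 and 53.0 CPM with PSB-KD107, a log2 fold change of 2.00 (SE 0.46, adjusted p = 0.264 in edgeR and 0.0012 in DESeq2, where it was 0.0565 without vehicle library 4). Pfkfb3, which makes the glycolytic activator fructose 2,6-bisphosphate, was 1.67 log2 units higher (SE 0.44, adjusted p = 0.33 in edgeR and 0.0103 in DESeq2), with the highest level in PSB-KD107 library 4. Without that library the log2 fold change was 1.02, and the DESeq2 call was lost without vehicle library 2 or 4 (adjusted p 0.153 and 0.17).

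Among all genes tested, the pattern of Prkag3 over the 6 libraries was followed most closely by Ccdc23, Iffo1 and Tchh. The root mean square difference of their log2 CPM deviations from that of Prkag3 was 0.064, 0.071 and 0.10. Ccdc23 had 311, 286 and 312 CPM with vehicle and 197, 229 and 129 CPM with PSB-KD107, so that it too was lowest in PSB-KD107 library 4.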

How the data were processed

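Poly(A) RNA of 6 cultures was sequenced as paired reads of 100 bases from strand-marking libraries. Per the labels, the authors used STAR version 2.3.0 and mm10, and the deposited values are raw counts per gene. The counting tool and its strand setting are not given in the sources used here. The table numbers the libraries 1, 2 and 4 and the sample records 1 to 3. Libraries numbered 4 were therefore assigned to a group only.

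Counts were tested with edgeR 4.0.16 (quasi-likelihood, default expression filter, TMM factors, group only) in R 4.3.3, with Benjamini-Hochberg adjustment over 14165 genes. The call threshold was 0.05. DESeq2 1.42.0 and limma 3.58.1 (voom) served as alternatives, along with other filters, factors, a replicate block and each library left out. CPM used the TMM factors, and 3 counts corresponded to 0.0596 to 0.0962 CPM. Lengths came from the union of GENCODE M21 exons. Ratios used an offset of 0.1 CPM and two-sided exact permutation tests (SciPy 1.17.1). Sequences were aligned with Biopython 1.88. The fits were tested on simulated data.

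The 9 genes and all lists were chosen with earlier results of these data known. Named list genes were those outside the 9 with an unadjusted p under 0.05 (at most 4 per list, by p), or else the gene with the smallest p; some of these are not reported here. Pfkfb3, Map3k7 and the single markers were named after their values were seen. Genes like Prkag3 were the 3 with the smallest root mean square difference. The labels do not tie a library to a mouse, so p-values measure only the spread between these libraries.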

Additional observations from a re-analysis of the deposited data

How the results depend on the processing

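Each of the 9 genes kept its direction in all 21 alternative fits except Camkk2, which kept it in 19, so this does not set Prkag2, Prkag3 and Stk11 apart. The number of genes called was 0 in edgeR and also 0 without any 1 library. It was 8 with no filter on low counts, 410 with DESeq2, and 160 to 768 with DESeq2 and 1 library left out (602, 177 and 160 without vehicle library 1, 2 or 4, and 275, 768 and 674 without PSB-KD107 library 1, 2 or 4). Of the 9 genes, 3 had an unadjusted p under 0.05, and with 1 library left out 1 to 3 did in edgeR, the lowest without vehicle library 4. Among the other pathway genes the 1 lower gene became 1 to 3 with 1 library left out (3 without PSB-KD107 library 4, and 2 without vehicle library 1 or PSB-KD107 library 1 or 2). With DESeq2 and 1 library left out, 9 to 16 were higher (16 without vehicle library 1) and 1 to 4 lower (3 without vehicle library 1, 2 without PSB-KD107 library 1 or 2, and 4 without PSB-KD107 library 4). Prkab2 moved from 0.54 to 0.16 without PSB-KD107 library 4. The Prkaa2 to Prkaa1 difference of 0.20 turned to -0.049 without vehicle library 4.

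Library numbers were not shown to pair the groups. Deviations from the group means correlated at 0.63 for libraries 1, 0.50 for libraries 2 and -0.13 for libraries 4, and vehicle library 4 correlated best with PSB-KD107 library 2 (0.64). With the replicate block over 6 libraries, edgeR called 0 genes, 2 other pathway genes were lower, and the Prkag3 to Prkag2 difference stayed at -1.59 (exact permutation p = 0.25, the smallest that 3 pairs allow). When a replicate block was fitted to libraries 1 and 2 alone, 2456 genes were called, with 17 pathway genes higher and 9 lower. The edgeR adjusted p-values were 0.00138 for Prkag2, 0.00376 for Prkag3 and 0.0359 for Stk11. With a single library of each group per block, that fit leaves little to estimate the spread from. The same 4 libraries with no replicate block gave 0 calls and 3 lower pathway genes. Camkk2 turned to -0.0338 with the replicate block and -0.0283 without it in these 4 libraries. DESeq2 with the replicate block over 6 libraries called 638 genes, Prkag2 (adjusted p = 0.0213) and Prkag3 (0.00328) among them. The fit of 4 libraries without a block and both DESeq2 additions were chosen after the data had been seen.

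Gene length changes the vehicle ratios but not their differences between groups. On the log2 scale, the Prkaa2 to Prkaa1 ratio of -1.03 was -0.24 with coding length. The Prkab2 to Prkab1 ratio of -0.41 was -0.93 with the longest transcript and 0.32 with coding length, which turns the order of the β isoforms. The Prkag3 to Prkag2 ratio of 4.39 was 3.81 and 3.78, the Prkag2 to Prkag1 ratio of -2.72 was -2.16 and -1.92, and the Prkag3 to Prkag1 ratio of 1.67 was 1.86 with coding length. The cause of the other changes was not tested.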

Other observations

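Of 30 tested genes within 50 kb of the 9 genes, 3 had an unadjusted p under 0.05, against 9.4% of all genes. The ATP-gated channel gene P2rx4, beside Camkk2 (chr5:122707544-122729738), was 1.21 log2 units higher with PSB-KD107 (SE 0.30, 322, 227 and 200 counts with vehicle and 1174, 394 and 453 with PSB-KD107, edgeR adjusted p = 0.297, DESeq2 adjusted p = 0.0136). The sterol hydroxylase gene Cyp27a1, beside Prkag3 (chr1:74713574-74737892), was 1.71 log2 units higher (SE 0.61, edgeR adjusted p = 0.467), from 9 to 21 counts with vehicle and 19 to 92 counts with PSB-KD107. The cold-inducible RNA-binding protein gene Cirbp, 35.3 kb from Stk11, had a log2 fold change of -0.38 (SE 0.12, edgeR adjusted p = 0.407).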
